A study of Homo sapiens with 9 samples.

Results

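The HOX genes encode homeodomain transcription factors that lie side by side in 4 clusters and give cells along the body axis their regional identity. Their order on the chromosome follows the order in which they are switched on, from the low paralog numbers, used early and towards the head, to the high numbers, used late and towards the tail. EVX1 and EVX2, the even-skipped homologues, lie beyond the number 13 end of the HOXA and HOXD clusters. In cells that do not use them, among them germ cells and pluripotent cells, the clusters are held silent by the Polycomb complexes, and retinoic acid is a classical inducer of the low-numbered genes. All genes of the annotation named HOXA, HOXB, HOXC or HOXD with a number, together with EVX1 and EVX2, were taken, which gave 41 of the 63856 genes listed, 39 HOX genes and 2 EVX genes. The HOXA cluster with EVX1 spans 157.5 kb of chromosome 7, HOXB 200.7 kb of chromosome 17, HOXC 117.3 kb of chromosome 12, and HOXD with EVX2 113.4 kb of chromosome 2 (GRCh38).

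RNA of TCam-2 cells, a human line grown from a testicular seminoma, was sequenced in 9 samples with 3 biological replicates in each of 3 groups. The wild type cells (WT) were untreated. The negative control (NC) was transfected with the px335_G2P vector, which carries GFP, with nonspecific gRNAs. The third group (ESX1) received px335_G2P vectors with gRNAs against the promoter region of ESX1, an X-linked homeobox gene, together with PB-TRE-dCas9-VPR, a doxycycline-driven Cas9 without cutting activity that is fused to an activation domain (CRISPRa). Transfected cells were selected with puromycin and doxycycline for 72 h and were collected as a mixed culture in which not every cell carried the vectors. The methods name no dCas9-VPR vector for NC, so the gRNAs and the activator cannot be told apart between ESX1 and NC, nor can transfection and selection between either of them and WT. In such bulk RNA, more cells that express a gene and more RNA of it per cell cannot be told apart either. ESX1 itself had 562, 554 and 170 counts in the ESX1 samples, 35, 27 and 34 in NC and 33, 28 and 30 in WT. All ESX1 samples lay above all controls, and in edgeR's quasi-likelihood test the gene rose by 3.85 on the log2 scale relative to NC (adjusted p = 4.48e-08) and by 3.75 relative to WT (adjusted p = 1.87e-08).

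Total counts per sample ranged from 5212804 in ESX1 replicate 3 to 10644408 in WT replicate 3. At this depth the HOX clusters were close to the limit of detection. The highest count of any HOX or EVX gene in any sample was 96, and 5 genes had a mean level above 1 CPM per kb of exon, where CPM is the count scaled to the size of the library, while the median of the 18452 genes tested was 3.42. Tests were run on 13 of the 41 genes, those with at least 1.08 CPM in 3 or more samples, among them HOXA9 and HOXA13, HOXB3, HOXB7, HOXB9 and HOXB13, HOXC4, HOXC6, HOXC9, HOXC10 and HOXC13, and EVX1. None of the 9 HOXD genes reached that level. HOXA9, HOXC9 and HOXB13 were above it in all 9 samples, whereas HOXB3, HOXB9 and HOXC10 were below it in every WT sample and were tested through the other groups.

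**Figure D1:**
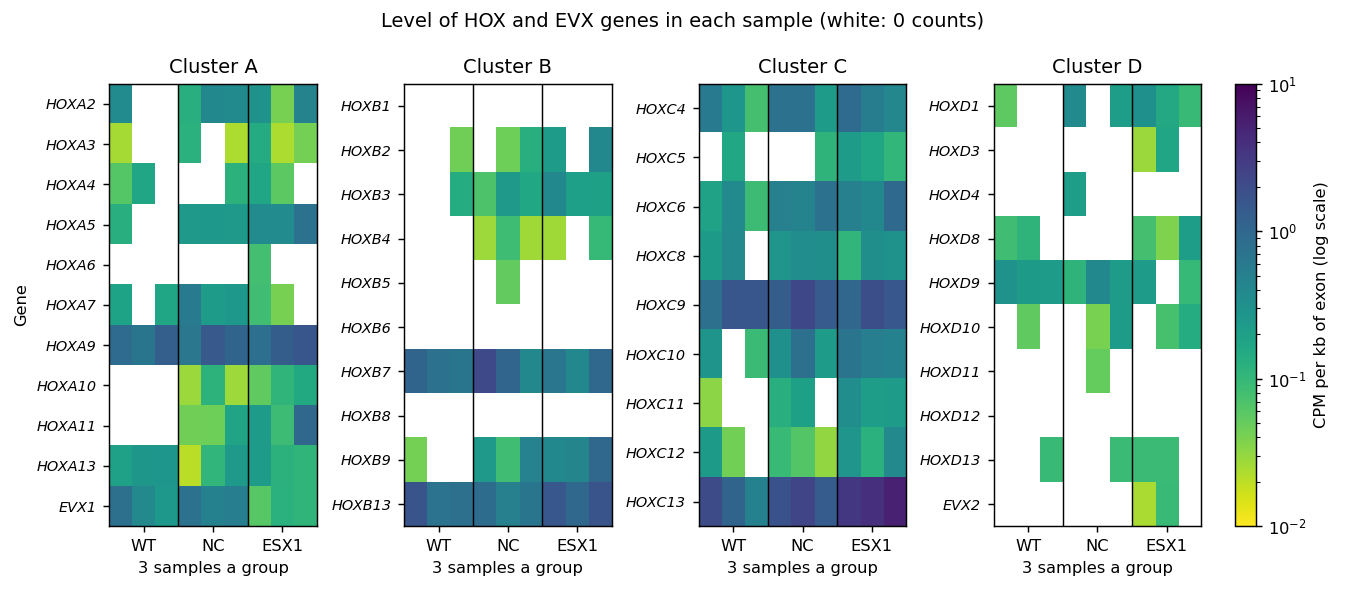
Level of 40 of the 41 genes in CPM per kb of exon on a log colour scale, with genes from low to high paralog number in each cluster and EVX1 and EVX2 in the bottom rows of clusters A and D; each column is 1 sample, and white stands for 0 counts. HOXC13 is the darkest row, and the HOXD cluster is mostly white.

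EVX1 was the 1 member of the 13 tested that passed the test against both controls, where 1.53% of all tested genes did, 0.948% higher and 0.585% lower. A call took an adjusted p below 0.05 and at least a 2-fold change. EVX1 had 2, 4 and 2 counts in the ESX1 samples, 24, 15 and 17 in NC and 24, 9 and 8 in WT. Every ESX1 sample lay below every control sample. EVX1 entered the test only through NC and WT samples, where it was high, and a gene that passes in this way had to be lower in ESX1. In CPM this was 0.325 ± 0.107 in ESX1, 1.94 ± 0.477 in NC and 1.59 ± 0.924 in WT (mean ± SD, n = 3). EVX1 is a homeodomain repressor of the posterior embryo and the primitive streak. It fell by 2.56 on the log2 scale against NC (SE 0.621, adjusted p = 0.0244 in edgeR), which is 5.88-fold lower. Against WT it fell by 2.27 (SE 0.635, adjusted p = 0.0126). NC and WT differed by 0.28 (adjusted p = 0.74). EVX1 lies on the plus strand of chromosome 7 from 27242700 to 27250493, and 15.9% of its exon bases are shared with EVX1-AS on the other strand. Counting did not use the strand, and a read pair that touches both genes is assigned to neither. EVX1-AS had 1 count over the 3 ESX1 samples, 7 over NC and 5 over WT.

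The EVX1 result rests on few counts. Without NC replicate 1, 2 or 3, or ESX1 replicate 1 or 3, the adjusted p against NC rose to between 0.0551 and 0.109. Without WT replicate 1 or ESX1 replicate 1 the adjusted p against WT was 0.0727 or 0.053. The log2 fold change stayed between -2.80 and -2.28 against NC and between -2.60 and -1.68 against WT when any 1 sample was left out.

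EVX2, the homologue beside HOXD13, was read in ESX1 samples only, with 1, 4 and 0 counts, against 0 in all NC and WT samples. It did not reach the level for testing. Set against the 3 counts that a count of 0 over a group still allows, the 5 ESX1 counts come to 1.90 times NC and 1.69 times WT. The ESX1 counts are taken as they stand, so these ratios are not lower bounds. Of the 5 counts, 4 lay in ESX1 replicate 2. The start sites of both EVX genes are shown because EVX1 was called against both controls and EVX2 is its closest relative. They are taken from RefSeq on GRCh38.p14, each 300 bases long with 250 bases before the start and 50 after it, and read along the gene's own strand. Capitals mark TAAT or its reverse complement ATTA, the core to which homeodomains bind. The RefSeq start of EVX1 lies inside the gene as the count table lists it.
EVX1, chr7:27242552-27242851, plus strand: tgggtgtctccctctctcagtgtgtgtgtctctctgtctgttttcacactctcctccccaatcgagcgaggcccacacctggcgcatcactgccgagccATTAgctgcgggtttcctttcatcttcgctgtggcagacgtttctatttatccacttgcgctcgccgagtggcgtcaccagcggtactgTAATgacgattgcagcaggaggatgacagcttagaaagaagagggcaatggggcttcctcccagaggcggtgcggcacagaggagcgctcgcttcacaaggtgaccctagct
EVX2, chr2:176083913-176084212, minus strand: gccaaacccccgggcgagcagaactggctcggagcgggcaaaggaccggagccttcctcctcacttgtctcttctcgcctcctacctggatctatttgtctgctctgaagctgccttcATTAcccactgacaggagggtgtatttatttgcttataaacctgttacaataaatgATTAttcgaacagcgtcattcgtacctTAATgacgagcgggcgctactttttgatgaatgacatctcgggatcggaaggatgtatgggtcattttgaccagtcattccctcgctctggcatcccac

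The EVX1 window held TAAT on either strand 2 times and the EVX2 window 3 times. At least 1 TAAT was present in 50.2% of the 35116 promoter windows of the same length in the table and in 23 of the 29 HOX and EVX windows it holds. TAATTA, which contains TAAT on both strands, was in neither EVX window and in 4.84% of all windows. AGGTCA, the half-site letters of retinoic acid receptors, was in 0 of the 29 windows and in 13.8% of all windows. These are matches of letters, and they do not show binding.

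Against NC, 0 of the 13 tested genes rose and 1, EVX1, fell by edgeR. Of all genes tested, 1.78% were called in this comparison, 1.08% higher and 0.699% lower. At an unadjusted p below 0.05, 2 HOX genes were higher and EVX1 lower. The share of all tested genes at an unadjusted p below 0.05 was not taken. Counts at that level, here and below, are therefore descriptions only. The 12 tested HOX genes had a median log2 fold change of 0.35, and all tested genes one of 0. The ESX1 samples lay above all NC samples for 3 genes, among them HOXC13 and HOXB13, and below them for EVX1, where 10.7% of all tested genes had ESX1 samples above and 11.8% below. By DESeq2's Wald test 2 genes were called, with HOXC13 higher beside EVX1. Over all tested genes DESeq2 called 220 higher and 138 lower against NC.

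Against WT, 4 HOX genes rose, among them HOXC13, HOXB3 and HOXB9, and EVX1 fell. Of all tested genes, 11.5% were called, 6.78% higher and 4.77% lower. The median of the 12 tested HOX genes was 1.06, against 0.007 over all tested genes. Because 3 of the 12, HOXB3, HOXB9 and HOXC10, entered the test only through NC and ESX1 samples, they had to be higher there. EVX1 entered only through NC and WT samples and had to be lower in ESX1. The calls of HOXB3, HOXB9 and EVX1 were thus fixed in direction by the filter. The medians against WT are descriptions of the genes that passed it, not of the whole clusters. Both controls were compared with the same ESX1 samples, so these comparisons are not independent. The ESX1 samples lay above all WT samples for 6 genes, among them HOXB3, HOXB9, HOXC6, HOXC10 and HOXC13, where 18.9% of all tested genes did, and below them for EVX1, where 21.3% did. With upper-quartile scaling the median over all genes moved to 0.108 and HOXC10 and HOXC6 were called as well. DESeq2 called 7 of the 13 tested genes against WT, HOXC6 and HOXC10 included. Over all tested genes it called 1244 higher and 836 lower.

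NC and WT also differed. HOXB9 rose from WT to NC and 0 of the 13 genes fell by edgeR, or by DESeq2, where 5.27% of all tested genes were called, 3.12% higher and 2.15% lower. At an unadjusted p below 0.05, 4 were higher and 0 lower, again without a share over all genes. Here the median of the 12 tested HOX genes was 0.64, against 0.009 over all tested genes. HOXB3, HOXB9 and HOXC10 were tested only through NC and ESX1 samples, so the call of HOXB9 and this median carry the same limit. All NC samples were above all WT samples for 3 genes, among them HOXC6 and HOXB9, where 17.6% of all tested genes were, and below them for 0 of the 13, where 20.0% were. Of the calls over all genes in this comparison, 59.2% were higher in NC, and 69.5% with upper-quartile scaling.

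**Figure D2:**
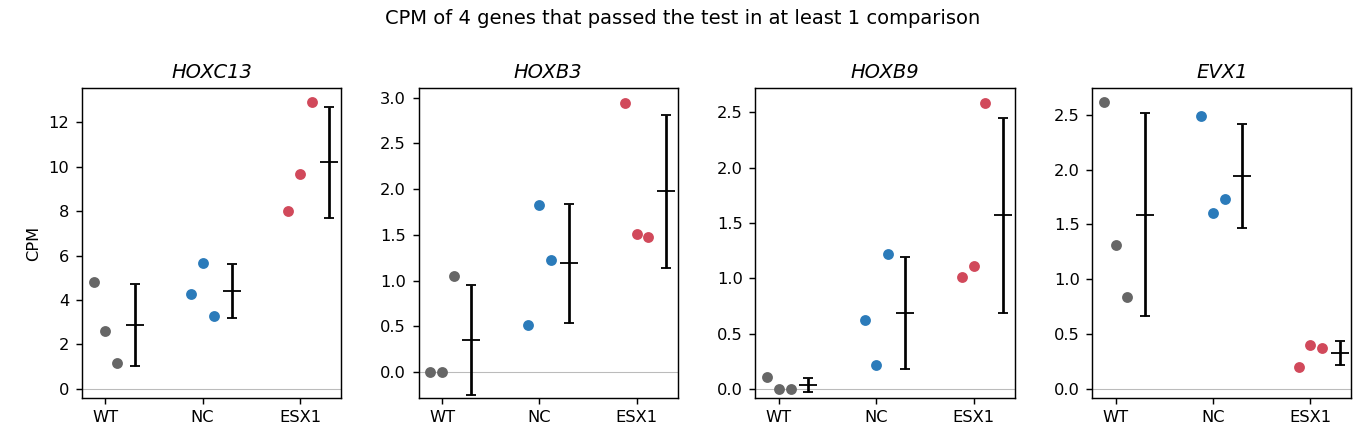
CPM of 4 genes that passed the test in at least 1 comparison, with 1 point per sample and the mean ± SD (n = 3) beside each group; the vertical axes differ between genes. The ESX1 points of EVX1 all lie under those of WT and NC, and those of HOXC13 all lie above them.

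HOXC13, a regulator of hair and nail keratins at the far end of the HOXC cluster, rose against WT. It had 79, 96 and 70 counts in ESX1, 41, 53 and 32 in NC and 44, 18 and 11 in WT. The group means were 10.2 ± 2.51, 4.396 ± 1.22 and 2.86 ± 1.84 CPM (SD, n = 3). All ESX1 samples were above both controls, while NC and WT overlapped. The log2 fold change was 1.81 against WT (SE 0.383, adjusted p = 0.00183, edgeR) and 1.20 against NC (SE 0.362, adjusted p = 0.075). Against NC the call depended on the fit. The adjusted p was 0.0266 by DESeq2, 0.0172 when only the 6 samples compared were fitted, and 0.0271 and 0.0222 without WT replicate 1 or 3. It was as high as 0.282, without NC replicate 3.

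The antisense gene next to HOXC13 had a similar order of groups. HOXC13-AS had 44, 41 and 49 counts in ESX1, 25, 28 and 15 in NC and 11, 6 and 5 in WT, with no overlap between the groups. In the test HOXC13-AS rose against WT by 2.71 (log2) (adjusted p = 0.000286) and by 1.44 from WT to NC (adjusted p = 0.0459), and the change against NC was 1.27 (adjusted p = 0.0878). The call from WT to NC was lost in 8 of 19 alternatives, among them those without WT replicate 2 or 3 or NC replicate 1 or 2 (adjusted p 0.108 to 0.161). HOXC13 occupies chromosome 12 from 53938765 to 53946544 on the plus strand, and 7.10% of its exon bases are shared with HOXC13-AS. Since strand was not used in counting, reads of the gene and its antisense partner outside the shared bases are told apart only by position.

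HOXB9 was at the edge of detection in WT, with 1, 0 and 0 counts, against 6, 2 and 12 in NC and 10, 11 and 14 in ESX1. HOXB9 takes part in the patterning of the thorax and the mammary gland. All NC and ESX1 samples exceeded all WT samples, and NC and ESX1 overlapped. Scaled to the library sizes, the pooled counts were 35.5 times those of WT in ESX1 (95% counting interval 5.97 to 1440) and 17.8 times in NC (2.84 to 737). The intervals cover counting error only. In the edgeR test the adjusted p was 0.00236 against WT, 0.0312 between NC and WT and 0.466 between ESX1 and NC. Only NC and ESX1 samples brought HOXB9 into the test, so it had to be higher there than in WT. The rise from WT to NC lost its call without WT replicate 2 or 3 or NC replicate 1 or 3, with adjusted p values up to 0.14. HOXB9 shares no exon bases with a listed gene and lies on the minus strand of chromosome 17 from 48621159 to 48626356.

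HOXB-AS4, a noncoding gene of the HOXB cluster, had 2, 0 and 0 counts in WT, 11, 12 and 12 in NC and 14, 14 and 8 in ESX1. It was below the level for testing in every WT sample and was tested through the other groups, so it had to be higher there. Its adjusted p in edgeR was 0.00163 for ESX1 against WT, 0.00508 for NC against WT and 0.897 for ESX1 against NC. The pooled counts were 36 in ESX1 and 35 in NC, and all samples of both lay above WT.

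HOXB3, an anterior gene of the hindbrain and a regulator of blood progenitors, had 29, 15 and 8 counts in ESX1, 5, 17 and 12 in NC and 0, 0 and 10 in WT. The ESX1 samples lay above WT in CPM and overlapped NC. Since no WT sample of HOXB3 reached the level for testing, it had to be higher in the other groups. The change on the log2 scale was 2.37 against WT (SE 0.844, adjusted p = 0.0441, edgeR), 0.75 against NC (adjusted p = 0.685) and 1.61 for NC against WT (adjusted p = 0.22). The WT value rests on replicate 3. Without that sample the fitted change against WT was 7.15, with no WT count left to set it against, and HOXB3 was also called from WT to NC (adjusted p = 0.0107). Without any 1 of 6 other samples (WT replicate 1 or 2, NC replicate 2 or 3, ESX1 replicate 1 or 3) the call was lost, with an adjusted p of 0.0502 to 0.152. HOXB3 runs from 48548870 to 48604912 on the minus strand of chromosome 17 and shares 13.2% of its exon bases with 4 genes.

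**Figure D3:**
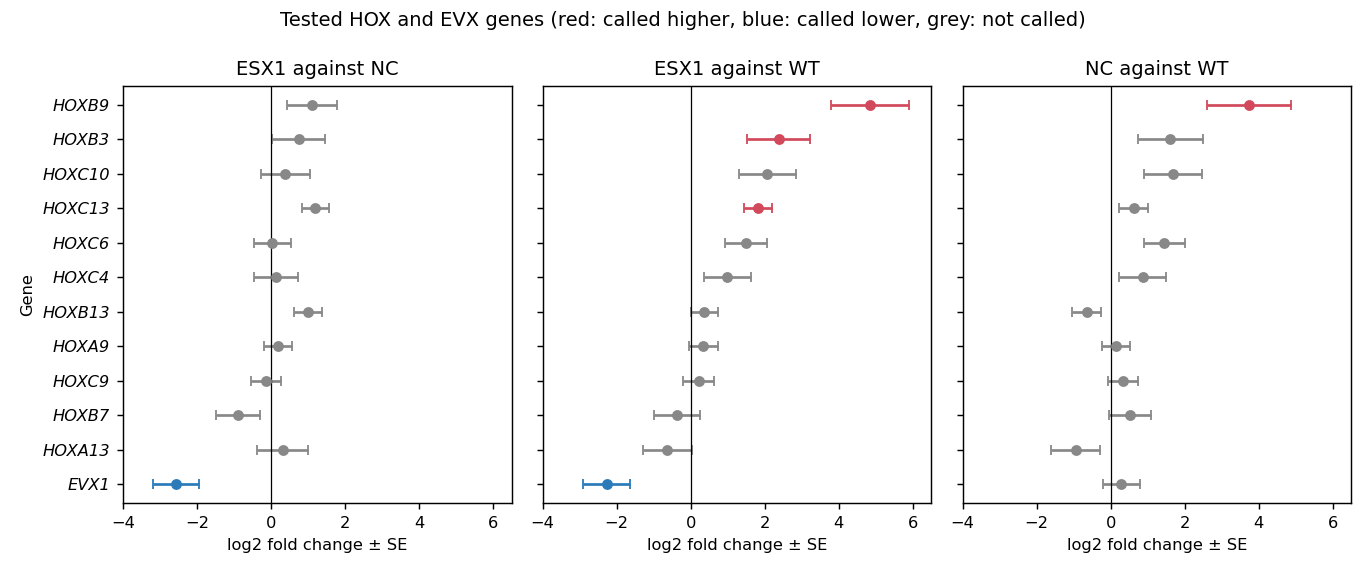
Log2 fold change with its standard error for 12 of the 13 tested genes in the 3 comparisons, ordered by the change against WT, from edgeR's quasi-likelihood test on 3 samples a group; red marks genes called higher and blue genes called lower. The value of HOXB9 against WT depends on the prior count of the fit, since WT had 1 count of it in all.

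HOXC9, HOXA9 and HOXB13 were read in all samples and were not called in any comparison. HOXC9 stood at 1.495 ± 0.447 CPM per kb in ESX1, 1.64 ± 0.516 in NC and 1.30 ± 0.450 in WT (SD, n = 3). HOXA9, a leukaemia-associated gene of the posterior HOXA cluster, stood at 1.23 ± 0.395, 1.06 ± 0.401 and 0.939 ± 0.286, and both genes overlapped between all groups. HOXA9 shares 27.04% of its exon bases with other genes and HOXC9 9.71%. HOXB13, the prostate regulator at the end of HOXB, was at 1.39 ± 0.352 in ESX1, 0.679 ± 0.186 in NC and 1.06 ± 0.532 in WT. The ESX1 samples of HOXB13 lay above NC and within the range of WT, with a log2 fold change of 1.01 against NC (adjusted p = 0.172) and of 0.36 against WT (adjusted p = 0.498).

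By mean CPM per kb over all 9 samples these genes and HOXC13 followed the order HOXC13 (2.40), HOXC9 (1.48), HOXA9 (1.08) and HOXB13 (1.04). In each group the mean ± SD of HOXA9 overlapped that of HOXB13 and that of HOXC9.

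The remaining tested genes, HOXA13, HOXB7, HOXC4, HOXC6 and HOXC10, were not called in any comparison by edgeR, while DESeq2 called HOXC6 and HOXC10 higher against WT. In edgeR HOXC6 and HOXC10 came nearest, against WT, with log2 fold changes of 1.49 (adjusted p = 0.0559) and 2.07 (adjusted p = 0.0544). HOXC6 was higher in all NC and all ESX1 samples than in WT, at 17, 14 and 18 counts in ESX1, 17, 15 and 26 in NC and 6, 9 and 3 in WT. HOXC10 had 16, 12 and 6 counts in ESX1, 7, 17 and 5 in NC and 6, 0 and 2 in WT. As no WT sample of HOXC10 reached the level for testing, it had to be higher in the other groups. Without WT replicate 1 HOXC10 was called against WT (3.33, adjusted p = 0.0167) and from WT to NC (2.94, adjusted p = 0.0476). Without WT replicate 2 or ESX1 replicate 2 HOXC6 was called against WT (adjusted p = 0.0305 and 0.0425). HOXB7 and HOXA13 had negative values against WT, at -0.38 (adjusted p = 0.688) and -0.63 (adjusted p = 0.508).

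The 28 untested genes had at most 13 counts in any sample. HOXB1, HOXB6, HOXB8 and HOXD12 had no count in any of the 9 samples. Of the 28, 13 were at 0 in all WT samples, 8 in all NC samples and 7 in all ESX1 samples. At 0 in WT and with counts in ESX1 were 6 genes, and 0 genes showed the reverse. The share of such genes over all genes was not taken, and WT had the fewest genes with a count over the whole table. Against NC genes went both ways. EVX2, HOXD3, HOXD8 and HOXA6 were at 0 in NC with counts in ESX1, and HOXD4, HOXD11 and HOXB5 showed the reverse. HOXA11, a limb and uterus gene, had 0 counts in WT, 1, 1 and 4 in NC and 5, 2 and 12 in ESX1. Set against 3 counts over the WT group, its ESX1 counts as they stand were 6.43 times as many, and those of its neighbour HOXA10 3.04 times. Counting error in ESX1 is not part of these ratios, so they are not lower bounds. ESX1 replicate 3 held 12 of the HOXA11 counts. HOXC11 had 22 counts over ESX1, 10 over NC and 1 over WT, a ratio of 22.3 to WT (counting interval 3.61 to 922). HOXA5 had 19, 12 and 2, a ratio of 9.64 to WT (2.33 to 85.4). HOXA7, a central gene of the same cluster, had 3 counts over ESX1 against 24 over NC, a ratio of 0.143 (0.0275 to 0.47), and 8 over WT. HOXD3 had 7 counts over ESX1, as 1, 6 and 0, and 0 over each control. It shares 73.0% of its exon bases with other genes, and HOXA7 shares 62.5% with HOXA-AS3 on the other strand. These intervals again cover counting error and not the spread between samples.

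In each sample between 16 and 33 of the 41 genes had at least 1 count. The numbers were 33, 30 and 28 in ESX1, 26, 27 and 29 in NC and 23, 17 and 16 in WT. Brought to the depth of the shallowest sample, the expected numbers were 29.4, 26.6 and 28.0 in ESX1, 23.7, 24.5 and 26.4 in NC and 20.1, 16.1 and 14.4 in WT. At the depth of each sample ESX1 and NC overlapped, and at equal depth they came as close as 26.6 and 26.4. Over all genes in the table, the number with a count was 26950 to 28525 in WT, 29358 to 30325 in NC and 29510 to 31190 in ESX1, so it was lowest in WT there too.

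The sum over the 39 HOX genes was lowest in WT and highest in ESX1. The sums were 29.8, 20.1 and 20.7 CPM in WT, 33.9, 39.7 and 30.5 in NC and 46.9, 42.9 and 60.8 in ESX1. The groups did not overlap, with or without ESX1 replicate 3, the shallowest library and the highest value. Sums over chosen genes were not tested.

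**Figure D4:**
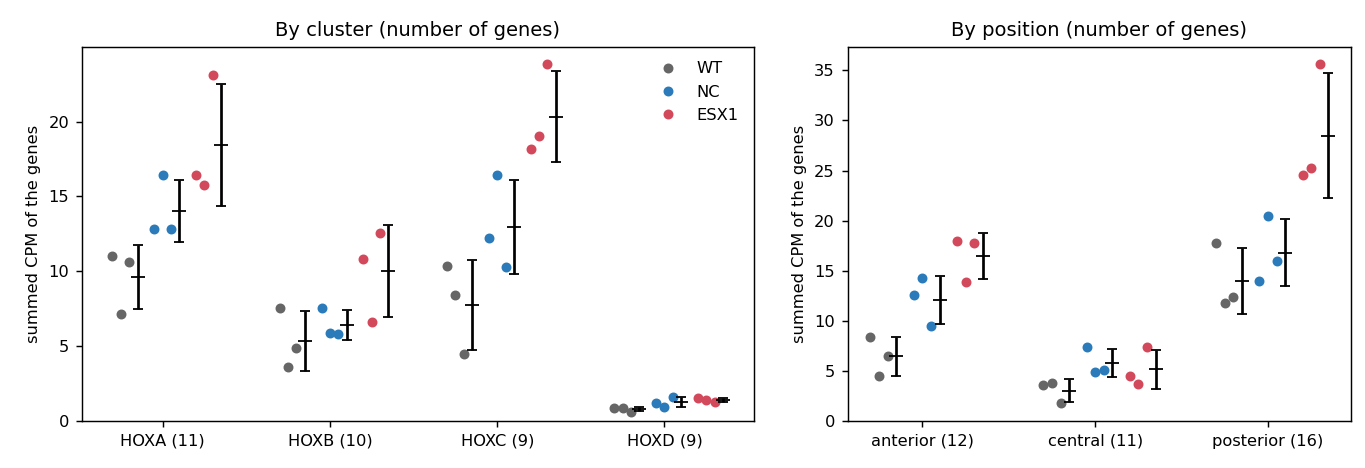
Summed CPM of the HOX genes by cluster (left) and by position along the clusters (right), with the number of genes in brackets, 1 point per sample and the mean ± SD (n = 3). HOXC and the posterior genes show ESX1 points above all WT and NC points, and HOXD is under 2 CPM in every sample.

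By cluster, the sum of the HOXC genes was 18.1, 19.0 and 23.8 CPM in ESX1, 12.2, 16.4 and 10.3 in NC and 10.4, 8.45 and 4.49 in WT, with ESX1 above both controls and NC and WT overlapping. This rested on HOXC13: without it, a sum chosen after the values were seen, the other 8 HOXC genes came to 10.14, 9.36 and 10.9 in ESX1 and 7.98, 10.72 and 7.02 in NC, which overlap, and both lay above the 5.57, 5.83 and 3.34 in WT. The HOXA sum was 16.4, 15.8 and 23.1 in ESX1, 12.9, 16.4 and 12.8 in NC and 11.03, 7.14 and 10.7 in WT. Here ESX1 and NC overlapped and both were above WT. The HOXB sum, 10.02 ± 3.05 in ESX1, 6.42 ± 0.993 in NC and 5.36 ± 1.98 in WT (SD, n = 3), overlapped between ESX1 and both controls. The HOXD sum was 1.41 ± 0.114 in ESX1, 1.28 ± 0.333 in NC and 0.792 ± 0.143 in WT, with ESX1 and NC overlapping and both above WT.

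By position, genes 1 to 4 were taken as anterior, 5 to 8 as central and 9 to 13 as posterior. The 16 posterior genes summed to 24.5, 25.3 and 35.7 CPM in ESX1, 13.99, 20.5 and 15.98 in NC and 17.8, 11.8 and 12.4 in WT, with ESX1 above both controls. Without HOXC13 ESX1 was also above both, at 16.5, 15.6 and 22.7 in ESX1, 9.74, 14.8 and 12.7 in NC and 12.99, 9.18 and 11.3 in WT. The 12 anterior genes came to 17.9, 13.9 and 17.7 in ESX1, 12.5, 14.3 and 9.47 in NC and 8.41, 4.52 and 6.48 in WT, where ESX1 and NC overlapped above WT. The 11 central genes, at 5.19 ± 1.94 in ESX1, 5.79 ± 1.36 in NC and 3.06 ± 1.11 in WT (SD, n = 3), overlapped between ESX1 and both controls. The mean of the central genes was lower in ESX1 than in NC, by less than the spread of either group.

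Compared per length and averaged over genes and samples, HOXC stood highest, at 0.647 CPM per kb, followed by HOXA at 0.476, HOXB at 0.253 and HOXD at 0.05996. Posterior genes averaged 0.477, anterior genes 0.357 and central genes 0.201. The means are carried by few genes, since the medians were 0.375 for HOXC, 0.170 for HOXA, 0.0611 for HOXB and 0.0405 for HOXD. Of the 41 genes, 25 share exon bases with another gene, and among the genes without shared bases HOXB, not HOXC, ranked highest. That set leaves out HOXC13 and HOXC9 and keeps HOXB13 and HOXB7.

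Paralogs, the genes of the same number in different clusters, differed in level. Among the number 13 genes, HOXC13 averaged 2.40 CPM per kb, HOXB13 1.04, HOXA13 0.170 and HOXD13 0.0405. Of the number 9 genes, HOXC9 stood at 1.48, HOXA9 at 1.08, HOXB9 at 0.296 and HOXD9 at 0.199.

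The partners and regulators of HOX genes were read from lists. Of the TALE cofactors, the PBX, MEIS and PKNOX proteins that bind DNA together with HOX proteins, 8 of 9 were tested and 0 were called in any of the 3 comparisons by edgeR or DESeq2. At an unadjusted p below 0.05, 0 differed from NC and 4 were lower than WT in ESX1. Of the 30 Polycomb genes, all tested, 0 were called against NC by edgeR or DESeq2, and 2 were higher and 5 lower at an unadjusted p below 0.05. Against WT, 2 rose, among them CBX7 (log2 fold change 1.47, adjusted p = 0.047), a reader of the repressive histone mark, and PHC1 (-1.28, adjusted p = 7.92e-06), a subunit of the same complex, fell. Of all tested genes, 6.78% rose and 4.77% fell against WT, so 2 and 1 of 30 are near the share over all genes. CBX7 was below the level for testing in every WT sample and was tested through the other groups, so it had to be higher there. The call of CBX7 was lost in 11 of 19 alternatives, among them those that left out any WT sample, NC replicate 1 or 2, or ESX1 replicate 1 or 3 (adjusted p 0.0522 to 0.146). Among 13 Trithorax and H3K27 demethylase genes, KDM6B, which removes that mark, rose against WT (1.48, adjusted p = 0.00153) and from WT to NC (1.07, adjusted p = 0.0224), and 0 were called against NC by edgeR or DESeq2, with 1 lower at an unadjusted p below 0.05. The rise of KDM6B from WT to NC was not called without WT replicate 2 or 3 or NC replicate 1 or 3 (adjusted p 0.0615 to 0.0844). Over all tested genes 3.12% rose from WT to NC.

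Of 26 inputs to HOX genes, 18 were tested. Against NC, 2 rose, among them CYP26A1, where 1.08% of all tested genes rose. CYP26A1, the enzyme that degrades retinoic acid and is itself induced by it, had 152, 125 and 90 counts in ESX1, 14, 11 and 5 in NC and 1, 5 and 7 in WT. It was below the level for testing in every WT sample and was tested through the other groups. The log2 difference of CYP26A1 was 3.81 against NC (adjusted p = 1.29e-05, edgeR) and 4.82 against WT (adjusted p = 5.06e-07). In edgeR 4 of the 18 inputs had an adjusted p below 0.05 against NC. Among them RDH10 was higher (0.77, adjusted p = 0.00539) and DHRS3 lower (-0.69, adjusted p = 0.00211), both under the 2-fold limit. Against WT, ALDH1A2, which makes retinoic acid, rose by 1.18 (adjusted p = 0.0345) and STRA6, which imports retinol, fell by 1.04 (adjusted p = 0.0152). The changes against NC were 0.01 (adjusted p = 0.991, edgeR) for ALDH1A2 and -0.69 (adjusted p = 0.262) for STRA6. Both calls against WT depended on single samples. ALDH1A2 was not called in 8 of 19 alternatives, among them those without WT replicate 2 or 3 or ESX1 replicate 2 or 3 (adjusted p 0.0747 to 0.136), and STRA6 not in 7 of 20, among them those without WT replicate 3 or ESX1 replicate 2 or 3 (log2 fold change -0.98 to -0.69, adjusted p up to 0.115). How these genes relate to the HOX genes was not tested.

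Of 19 other homeobox genes of the same ANTP class, 7 were tested. Against WT 2 of the 7 rose, where 6.78% of all tested genes did. Against NC 1 rose (1.08% of all tested genes) and from WT to NC 1 (3.12%). DLX3, which like ESX1 is a gene of the placenta, rose against WT (log2 fold change 1.72, adjusted p = 0.00019). Against NC it was at the 2-fold limit (log2 fold change 1, adjusted p = 0.0373), and 11 of 20 alternatives lost that call, among them those without WT replicate 2, NC replicate 1 or 3, or ESX1 replicate 1 or 2 (adjusted p up to 0.176). NKX2-5, a cardiac gene, rose against WT (1.77, adjusted p = 0.00439) and from WT to NC (1.62, adjusted p = 0.0132), the latter not without WT replicate 3 (1.27, adjusted p = 0.0637). The 25 noncoding genes of the clusters that the tables list had 4 tested members, HOTAIRM1, HAGLR, HOXC13-AS and HOXB-AS4, of which the last pair was called against WT and from WT to NC as given above. Against NC 0 were called by edgeR or DESeq2, and 1 was higher at an unadjusted p below 0.05. The shares of all tested genes given for the ANTP class apply to these 4 genes too.

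Within 500 kb of the clusters 196 other genes are listed and 45 were tested. Against NC 0 were called by edgeR or DESeq2, with 3 higher and 3 lower at an unadjusted p below 0.05 and a median log2 fold change of 0.03. Against WT 6 of the 45 rose and 0 fell by both tools, where 6.78% of all tested genes rose and 4.77% fell, and 14 were higher and 10 lower at an unadjusted p below 0.05. Beside HOXC13-AS and HOXB-AS4 the 6 that rose were ITGA5 (1.44, adjusted p = 0.000165), an integrin subunit, CALCOCO1 (1.01, adjusted p = 0.000551), ZNF385A (1.71, adjusted p = 0.00574) and RP11-357H14.17 (1.24, adjusted p = 0.0316). All of the 6 but CALCOCO1 were also called from WT to NC, where 3.12% of all tested genes rose. Against WT, RP11-357H14.17 was not called without any 1 of the WT samples or ESX1 replicate 3 (adjusted p 0.0548 to 0.167), and CALCOCO1 fell under the 2-fold limit without WT replicate 3 or ESX1 replicate 1 or 3 (0.94 to 0.96). From WT to NC, RP11-357H14.17 was not called without WT replicate 2 or 3 or NC replicate 2 or 3 (adjusted p 0.056 to 0.0839), nor ZNF385A without WT replicate 2 or 3 or any 1 of the NC samples (adjusted p 0.0581 to 0.125).

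Markers of cell identity moved with the groups. The 10 markers of seminoma and primordial germ cells summed to 1610 to 1955 CPM in ESX1, 2868 to 3076 in NC and 3798 to 4664 in WT. Of the 10, 8 fell against WT and 1, NANOG, against NC, where 4.77% and 0.699% of all tested genes fell. Against NC 0 of the 10 had a positive log2 fold change. In edgeR 7 had an adjusted p below 0.05 against NC, all but NANOG under the 2-fold limit. All 10 were read at levels that let them be tested. Fibroblast markers, of which 3 of 7 were tested, summed to 110.5 to 229.3 CPM in ESX1, 138.6 to 173.6 in NC and 203.7 to 356.8 in WT. The 3 did not move together. COL1A2, which made up most of the sum, was under the 2-fold limit at -0.90 (log2) against WT, COL1A1 rose against WT (2.27, adjusted p = 0.000236) and from WT to NC (2.19, adjusted p = 0.000708), and THY1 fell against NC (-1.47, adjusted p = 0.00981), against WT (-3.33, adjusted p = 4.39e-07) and from WT to NC (-1.86, adjusted p = 0.000122). WT replicate 1 had 70 counts of COL3A1 and 31 of LUM, where no other sample had more than 15 and 4. The other fibroblast markers did not all follow. In WT replicate 1 COL1A2 (172.7 CPM) and THY1 (13.21 CPM) were the lowest of the WT group, and COL1A1 (5.677 CPM) was the highest. This sample also had the highest HOX sum of the WT group, and without it HOXC13 rose from WT to NC by 1.27 (adjusted p = 0.0378) and the change of HOXC13 against WT was 2.47. Of the 4 leukocyte markers 0 reached the level for testing, and CD3E and LYZ were at 0 in all samples. Embryonal carcinoma markers summed to 66.5 to 84.5 CPM in ESX1, 81.9 to 95.2 in NC and 117 to 137.8 in WT. Within this sum SOX2 rose from WT to NC (1.23, adjusted p = 0.0222, edgeR), while TDGF1 fell (-1.27, adjusted p = 0.000298). Markers of Sertoli and Leydig cells summed to 16.6 to 39.5, 26.5 to 31.8 and 24.6 to 30.5, with HSD3B2 at 0 throughout, and those of endothelial cells to 45.8 to 55.3, 41.6 to 52.5 and 38.0 to 43.9. Of the endothelial markers VWF rose against WT (1.44, adjusted p = 3.82e-05, edgeR), while TEK was lower but under the 2-fold limit (-0.85, adjusted p = 0.00164). The part of these markers in the HOX values was not tested.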

How the data were processed

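RNA-seq of 9 TCam-2 samples (3 WT, 3 NC, 3 ESX1) was analysed, and groups were taken from the sample labels. The authors aligned read pairs to GRCh38 with HISAT2 2.0.5 (submitters' processing notes) and deposited raw counts per gene; the file header names featureCounts 1.5.2 and GENCODE 26, the notes featureCounts 1.6.5. The header shows no strand option, although the library kit keeps strand. The authors also deposited normalized log2 values made with DESeq2, whose transformation is not given in the sources used here; a count of 0 has the value 4.18 there, and they were used only as an alternative. Symbols come from the log2 table, whose values had the same rank order as the counts of the same row in each sample.

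Counts were tested in R 4.3.3 with edgeR 4.0.16 (filterByExpr with a minimum count of 10, TMM, glmQLFit over 3 group means, glmQLFTest, Benjamini-Hochberg over 18452 genes). A gene was called, written as rose or fell, at an adjusted p below 0.05 and at least a 2-fold change. The standard error is the log2 fold change divided by the square root of F. CPM were scaled with TMM. Ratios of pooled counts carry exact 95% conditional intervals. For a group at 0, the counts of the other group as they stand were set against 3 counts over the group, without an interval. Alternatives used DESeq2 1.42.0, limma 3.58.1, other scalings, filters and thresholds, a replicate block, and each sample left out in turn. The scripts were tested on simulated data. The rule for named genes took every gene called in at least 1 comparison, the 5 with the highest level per kb and, from each list, the called genes, at most 4 by adjusted p. Some of the genes it took are not reported here by name, and counts, medians and sums include them. The genes, lists and tests were chosen with earlier results of these data known. Replicate correlations of log2 CPM were 0.967 to 0.980 and the common dispersion was 0.0277. Total counts per sample were 5212804 to 10644408.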

Additional observations from a re-analysis of the deposited data

How the results depend on the processing

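The numbers of HOX and EVX genes called were 1 against NC, 5 against WT, 1 for NC against WT and 1 against both controls. RLE scaling, leaving out mitochondrial genes and dropping the fold minimum gave the same 4 numbers. DESeq2 and a fit of only the 6 samples compared called 2 against NC and 2 against both controls (EVX1 and HOXC13), and without a filter these were also 2, with 8 against WT. Requiring 10 counts in every sample, which removes EVX1, HOXB3 and HOXB9 from the test, left 0, 2, 0 and 0. Limma on the authors' log2 values, where a count of 0 has the value 4.18, gave 0, 3, 0 and 0, and an adjusted p below 0.01 also gave 0, 3, 0 and 0. Leaving out 1 sample at a time gave 0 to 2 against NC, 3 to 6 against WT, 0 to 3 for NC against WT and 0 to 2 against both controls. For fits of 6 samples, without a filter, by limma or with a sample left out, no share over all genes was taken. Their counts are descriptions only. With the replicate number of the titles as a block the numbers were 1, 5, 1 and 1; the deviations of equally numbered samples correlated at -0.03 to 0.193 over the 3 comparisons, so the numbers were not taken to pair the samples, and the block changed no call.

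Among genes that share no exon bases the order of levels per length changed, with HOXB at rank 1, HOXA at 2, HOXC at 3 and HOXD at 4, and with central genes at rank 1, posterior at 2 and anterior at 3. In this set HOXC keeps only HOXC8, HOXC11 and HOXC12, without HOXC13 and HOXC9. HOXB keeps HOXB7 and HOXB13 among others, and the anterior genes are HOXA2 and HOXB1 alone. The 2 orders are thus of different genes. What shared bases did to the level of a gene was not tested.

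Some uncalled differences changed sign when 1 sample was left out. Against NC the log2 fold change then ranged from -0.07 to 0.49 for HOXA9, -0.18 to 1.27 for HOXA13, -0.34 to 0.31 for HOXC6, -0.39 to 0.16 for HOXC9, -0.24 to 0.39 for HOXC4, -0.08 to 0.34 for NKX2-5, -0.09 to 0.43 for ITGA5, -0.25 to 0.3 for ALDH1A2, -0.04 to 0.75 for KDM6B and -0.58 to 0.11 for RP11-357H14.17. For HOXC9 against WT it ranged from -0.06 to 0.44. Between NC and WT it ranged from -0.12 to 0.41 for HOXA9, -0.04 to 0.87 for EVX1, -0.22 to 0.95 for HOXB7 and -0.2 to 0.01 for ESX1.

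At 5212804 to 10644408 counts a sample, 28 of the 41 genes were under the level for testing. Without that filter 37 were tested, and HOXA11 and HOXC11 were among the 8 called against WT, with no share over all genes taken for that fit.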
